A study of Mus musculus with 6 samples.

Results

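The replication-dependent histone genes are 67 of the 56748 mouse genes in the deposited tables. They were chosen by name and not by any measured value: every protein-coding gene whose GENCODE M21 symbol starts with Hist1h, Hist2h, Hist3h or Hist4h. They comprise 6 genes for the linker histone H1, 18 for H2a, 18 for H2b, 12 for H3 and 13 for H4. The Hist1 cluster on chromosome 13 holds 54 of them, the Hist2 cluster on chromosome 3 holds 10, the Hist3 cluster on chromosome 11 holds 2, and Hist4h4 lies alone on chromosome 6. Another 3 listed genes with such symbols are annotated as pseudogenes and were left out.

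Expression was measured by RNA sequencing in 3 control and 3 treated samples of 4T1, a mammary carcinoma line of mouse origin labelled wild type. Treated cells were seeded for 24 h, kept overnight with 125 µg/mL of Au/MoS2/Bi2S3, a particle of gold, molybdenum disulfide and bismuth sulfide, exposed to near-infrared (NIR) light for 8 min and washed 24 h later. The labels give 48 h as the collection point of both groups, carry the same protocol text for controls, and do not say what the controls received. RNA pooled from cells of 3 individuals is mentioned, and separate cultures are not. Each p-value therefore reflects the spread among the deposited samples, possibly technical in origin. The comparison asks how each transcript differs between treated and control cells. Particles or light alone are not analysed here.

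Core histones H2A, H2B, H3 and H4 form the protein spool around which DNA is wrapped, and H1 binds the linker DNA between spools. The clustered genes are transcribed mainly in S phase, when new chromatin is assembled. Their mRNAs usually have no introns and no poly(A) tail and end instead just after a stem-loop, which the stem-loop binding protein SLBP holds. Some of these genes are known also to give polyadenylated transcripts from a signal further downstream. The libraries were selected on poly-T beads, so RNA without a tail is captured poorly and the levels below are those of what the beads retained. In bulk RNA, fewer cells in S phase and less histone mRNA per cell cannot be told apart.

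The sequences at the transcript ends are shown because they bear on which histone transcripts poly-T beads can retain. A 16-base stem-loop pattern was searched on the sense strand of GENCODE transcripts, reading GG, 2 free bases, CTT, 1 free base, T, 1 free base, AG, 2 free bases and CC. It was found in 46 of the 67 genes, always after the stop codon, against 136 of all 21901 protein-coding genes (0.621%). Its form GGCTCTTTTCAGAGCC occurred in 26 genes. Capitals mark the 16-base pattern in the lines that follow, with 5 flanking bases on each side.
Hist1h1c stem-loop: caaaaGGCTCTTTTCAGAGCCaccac
Hist1h4i stem-loop: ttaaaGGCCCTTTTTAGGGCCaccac
Hist1h4h stem-loop: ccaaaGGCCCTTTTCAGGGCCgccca
Hist1h2ac stem-loop: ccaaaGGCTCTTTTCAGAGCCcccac

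A match is a description of the letters and not a test of use. In 13 genes no base is annotated after the stop codon, so the window could not hold the pattern. Among the 21 genes without a match, 4 have 100 or more annotated bases after the stop, namely Hist1h2bc, Hist2h2be, Hist1h2bq and Hist1h2br, all of type H2b.

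A polyadenylation signal, AATAAA or ATTAAA on the sense strand, was found after the stop codon in 22 of the 67 genes. In Hist1h1c the stem-loop starts 24 bases after the coding sequence and 840 annotated bases follow it. In Hist1h4i it starts 30 bases after the coding sequence and 330 bases follow. The last signal lies 20 bases before the annotated end in Hist1h1c, 15 in Hist1h4i, 16 in Hist2h2be and 441 in Hist1h2bc. Capitals mark the signal.
Hist1h1c signal: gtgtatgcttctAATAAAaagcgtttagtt
Hist1h4i signal: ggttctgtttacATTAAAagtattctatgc
Hist1h2bc signal: tgatgtatatatAATAAAtgtcatgtaaag
Hist2h2be signal: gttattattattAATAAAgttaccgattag

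Over all 67 genes the level was lower in treated cells for 49 by the group means, higher for 8, and 0 in every sample for 10. All 3 treated samples lay below all 3 controls for 21 genes, that is 21 of the 57 above 0 in any sample, where 15.9% of all 27756 such genes did so. They lay above all controls for 4 genes, Hist1h1b, Hist1h2bc, Hist2h2be and Hist1h4h, where 24.4% of all such genes did so. By type, complete separation downward was seen for 1 H1, 10 H2a, 0 H2b, 4 H3 and 6 H4 genes.

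**Figure D1:**
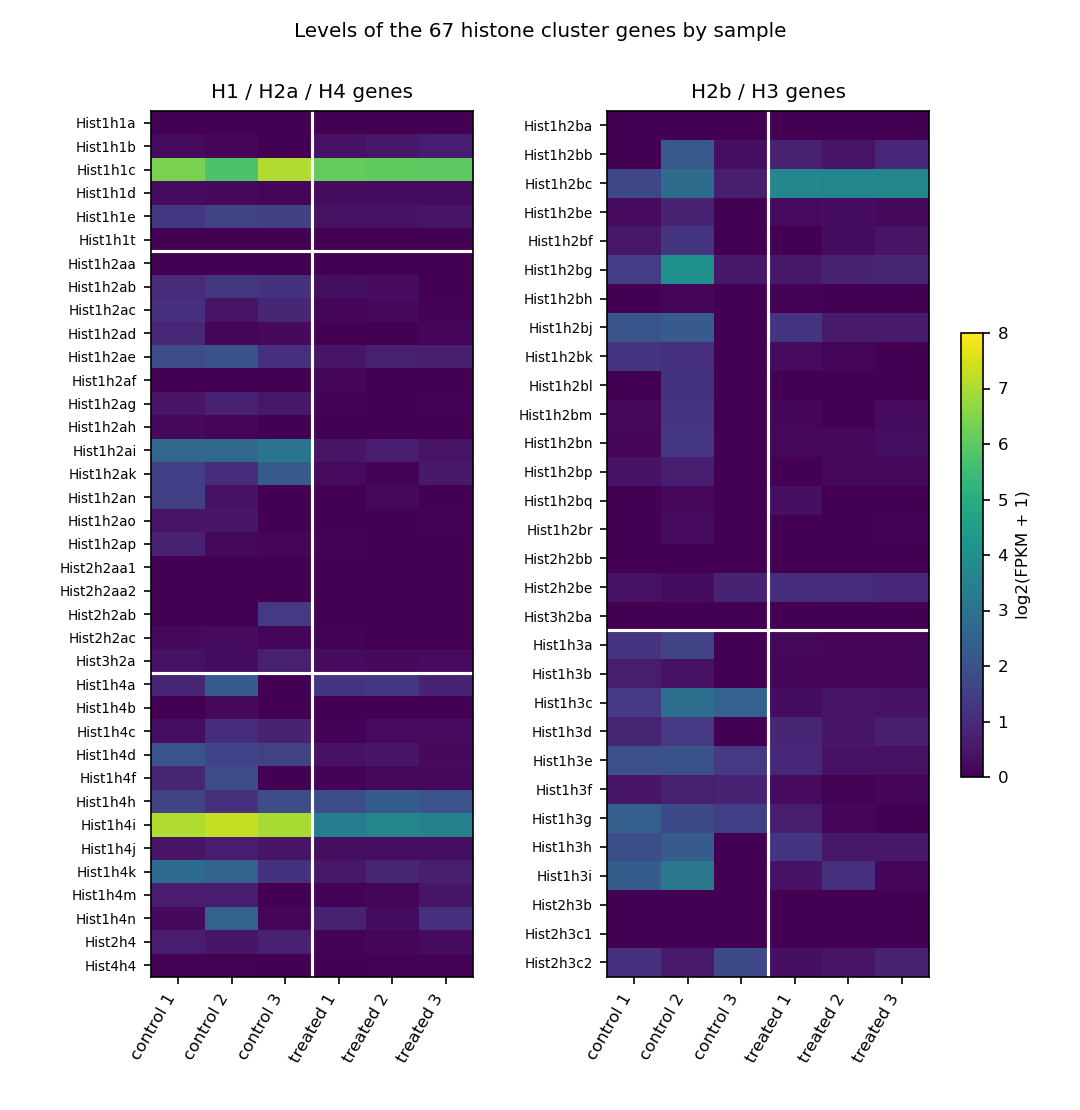
Level of each of the 67 histone cluster genes (rows, grouped by type) in each of the 6 samples (columns), as colour on the log2(FPKM + 1) scale, with white lines between groups and types. Hist1h4i is brighter in the 3 controls than in the treated samples, and Hist1h2bc is brighter in the 3 treated samples than in the controls. Hist1h1c is bright in all 6 samples, and control 3 has the most genes at 0 (36).

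Levels are in FPKM, fragments scaled to exon length and library size, and a log2 change is treated over control on the log2(FPKM + 1) scale with its standard error (SE). Only 17 of the 67 genes reached 1 FPKM in at least 3 of the 6 samples and entered the test, limma on log2(FPKM + 1) over 11118 genes. At a Benjamini-Hochberg adjusted p under 0.05, 10 of them were lower and 1 was higher. Of all genes tested, 56.1% were called, 28.3% lower and 27.9% higher, and an unadjusted p under 0.05 was reached by 6899. The median log2 fold change was -1.21 over the 17 and -0.02 over all tested genes. These counts are no support on their own, because 9 of the 17, all of them called lower, reached 1 FPKM in the 3 controls and in no treated sample. The 9 were Hist1h1e, Hist1h2ae, Hist1h2ai, Hist1h2ak, Hist1h3c, Hist1h3e, Hist1h3g, Hist1h4d and Hist1h4k. Their calls and p-values below carry the same limit. Hist1h2bc reached 1 FPKM in all 3 treated samples and in 2 controls. Without a filter, 57 histone genes were tested, 15 were called lower and 1 higher (Hist1h1b), against 9.8% lower and 14.7% higher among all 27756 genes. The median was then -0.35, against 0.02 for all genes.

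Facts of the whole set of libraries bear on every value. Reads at genes, worked back from the FPKM, were 32.6 to 38.1 M (M, 1e6) per sample, and every histone value corresponded to whole reads within 0.05. The deposited values had been scaled between libraries: the library size they imply was 0.719 to 0.839 times the recovered reads in controls and 1.32 to 1.33 times in treated samples. Rescaling by library size alone moved the median log2 fold change of all tested genes to 0.59, and values under that scaling are to be read against it. Control samples were also less alike, with a median SD over genes of 0.27 on the log2 scale against 0.07 in treated samples. Control 2 correlated with control 3 across genes (r = 0.911) about as closely as with treated 2 (r = 0.911). Histone genes at 0 numbered 18, 12 and 36 of 67 in controls 1 to 3 and 20 to 22 in treated samples.

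Cell type markers gave a mixed picture. The summed level of the 6 epithelial markers was 1540 to 2260 FPKM in the controls and 741 to 777 in treated samples, carried by Krt8, Krt18 and Krt19. Cdh1, which encodes E-cadherin and is a defining epithelial gene, did not exceed 0.1 FPKM in any sample, nor Krt14 0.114. The 4 fibroblast markers summed to 204 to 1170 FPKM in the controls and 51.4 to 54.4 in treated samples. Col1a1 and Col3a1 were abundant, and Dcn was at 0.054 or less. Pdgfra had similar means, 1.16 FPKM in controls and 1.21 in treated samples. Leukocyte markers (5, with Adgre1 at 0 throughout) summed to 0.0439 to 0.135 in controls and 0.204 to 0.512 in treated samples. The rise came from Cd79a (mean 0.0435 in controls, 0.345 in treated samples), while Lyz2 and Cd3e were at 0 in treated samples. Endothelial markers (3) summed to 0.744 to 1.16 and 1.17 to 1.73, mostly Cdh5 (mean 0.826 and 1.18), and adipocyte markers (2) to at most 0.0655. Several of these sums move with the groups, as the histone levels do, but not every marker in a list does. Their part in the histone results was not tested. Of the 6 testis histone and protamine markers, 5 were at 0 in every sample, including Hist1h1t, Hist1h2ba and Hist1h2aa, and Prm1 was at 0.442 or less.

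The summed level of the 67 genes was 276, 315 and 293 FPKM across the controls and 106, 105 and 102 across the treated samples. The groups did not overlap, and the treated mean was 2.82-fold lower (104 ± 2.28 against 295 ± 19.3, SD, n = 3). Hist1h1c and Hist1h4i together made up 77.3%, 67% and 86.3% of the sum in the controls and 72.3% to 72.7% in treated samples. The remaining 65 genes summed to 62.8, 104 and 40.2 FPKM in the controls and 29.5, 28.7 and 28.2 in treated samples, again without overlap. These 65 genes were also summed as reads per M recovered reads, without the deposited scaling and without division by exon length. They then gave 36.2, 58.5 and 22.9 in controls and 39.3, 37.2 and 36.9 in treated samples, with the treated samples inside the control range. That overlap rests largely on Hist1h2bc, a gene higher in treated samples. It gave 628, 593 and 597 of the 1327, 1242 and 1227 reads of the 65 genes in treated samples. In the controls it gave 83, 223 and 16 of 1378, 2210 and 748. These sums are descriptions and carry no test.

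The types differed in their sums, and H4 gave the largest in controls 1 and 2 and by the control mean, while H1 was slightly larger in control 3. The H4 sum was 146, 180 and 130 FPKM in the 3 controls and 15.4, 19.1 and 17.5 in the treated samples, 8.77-fold lower on average. H2a summed to 16.3, 13.2 and 17.3 against 1.65, 1.88 and 1.80, 8.78-fold lower. H3 summed to 19.8, 28.9 and 11.2 against 4.70, 3.24 and 2.63, 5.67-fold lower. None of these 3 types had a treated sample within its control range. H1 summed to 84.0, 55.7 and 132 against 68.1, 65.8 and 64.2, and H2b to 10.1, 37.1 and 2.01 against 16.4, 14.9 and 15.8, with the treated samples inside the control range in both. Under library size scaling the log2 ratios of treated to control sums were -2.40 for H4, -2.38 for H2a, -1.79 for H3, 0.32 for H1 and 0.62 for H2b.

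**Figure D2:**
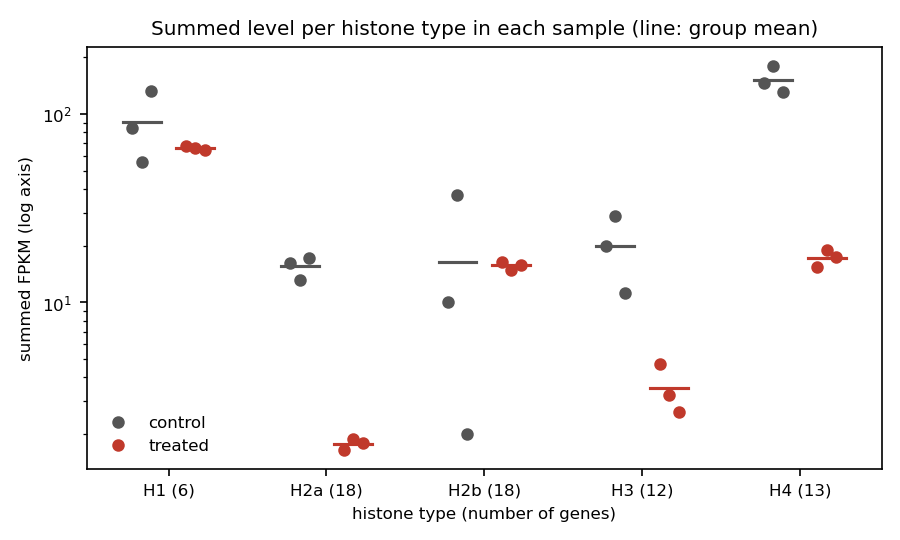
Summed FPKM of the genes of each histone type in each sample (points; log axis), with the group mean as a line and the number of genes in parentheses. Treated samples lie below every control for H2a, H3 and H4 and within the control range for H1 and H2b.

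Among the H1 genes, which encode the linker histone subtypes, Hist1h1c was by far the most abundant. Hist1h1c (chromosome 13, 23738808 to 23740367, plus strand, 1 exon, GRCm38) was at 82.2, 53.4 and 130 FPKM in the controls and 67.3, 64.9 and 63.1 in treated samples. The controls spread on both sides of the 3 treated values. The difference was not called (log2 change -0.35, SE 0.31, adjusted p = 0.376 by limma), and its sign depended on the scaling: 0.39 by library size, 0.52 after quantile normalization and 0.58 with trends on GC content, length and level removed. Without control 2 it was -0.66 (adjusted p = 0.0359 by limma). No 150-base window of its transcript occurs in another gene, so no annotated copy shares a stretch of that length with it.

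Hist1h1e, another somatic linker histone gene, fell in treated cells. Its level was 1.46, 2.12 and 1.86 FPKM in the controls and 0.288, 0.305 and 0.328 in treated samples, with no overlap. This is 5.91-fold lower (log2 change -1.10, SE 0.11, adjusted p = 0.000641 by limma), and the call held in all 14 alternatives in which it was tested. Its exon shares bases on the same strand with Hist1h2be, which was at 0.304 ± 0.376 FPKM in the controls and 0.169 ± 0.0357 in treated samples (SD, n = 3). Hist1h1b, also a somatic linker histone gene, had 4, 2 and 0 reads in controls and 10, 14 and 17 in treated samples. The treated samples were all higher, at a level too low for the filter (log2 change 0.38, SE 0.09, adjusted p = 0.0282 without a filter by limma). Hist1h1d, whose annotated transcript runs to 7425 bases, had 49, 34 and 14 reads against 59, 59 and 57, at most 0.211 FPKM in any sample. Hist1h1a and the testis gene Hist1h1t were at 0 in all samples.

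H2a transcripts were scarce, and 14 of the 18 genes had a lower mean in treated cells. Hist1h2ai led the type, at 5.29, 5.30 and 7.38 FPKM in the controls and 0.340, 0.576 and 0.345 in treated samples, 14.3-fold lower without overlap (log2 change -2.29, SE 0.15, adjusted p = 0.000253 by limma). Of its 150-base windows 86.1% also occur in other genes, most of them H2a copies, so its reads cannot be assigned to it with certainty. Hist1h2ak has no shared window and fell too, from 1.79, 1.04 and 3.80 FPKM to 0.170, 0.0576 and 0.460. No treated sample reached a control (log2 change -1.31, SE 0.32, adjusted p = 0.0141 by limma), though the call was lost with the GC, length and level trend removed (adjusted p = 0.365) and without treated 2. Hist1h2ae fell from 2.54, 3.00 and 1.09 FPKM to 0.411, 0.643 and 0.578 (log2 change -1.01, SE 0.25, adjusted p = 0.0149 by limma). Its groups did not overlap either, and the call was lost with library size scaling and without control 1 or treated 1. The other 12 H2a genes above 0 reached at most 1.87 FPKM in any sample.

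H2b held the 1 histone gene called higher in treated cells with the filter, Hist1h2bc. Hist1h2bc (chromosome 13, 23684199 to 23692908, plus strand, 2 exon blocks, no stem-loop match) was at 2.29, 6.08 and 0.591 FPKM in the controls and 12.1, 11.6 and 11.7 in treated samples. All 3 treated values exceeded the highest control, and the controls themselves ranged widely. The mean was 3.94-fold higher (log2 change 1.94, SE 0.51, adjusted p = 0.0184 by limma). The rise was in the same direction in all 15 alternatives, but the call was lost without a filter (adjusted p = 0.0502) and when control 1 or any treated sample was left out (adjusted p up to 0.0602). Reads were 83, 223 and 16 in controls and 628, 593 and 597 in treated samples, and 17.4% of its windows occur in other H2b genes.

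Hist2h2be, another long H2b transcript without a stem-loop match, was at 0.317, 0.193 and 0.749 FPKM in the controls and 1.09, 0.967 and 0.880 in treated samples. The treated values were all higher, below the filter in all but 1 sample (log2 change 0.50, SE 0.17, adjusted p = 0.0952 without a filter by limma). Hist1h2bg had 1.76, 15.2 and 0.414 FPKM in the controls and 0.432, 0.732 and 0.805 in treated samples. Its control mean of 5.78 rests on control 2 alone, and it did not pass the filter. Control 2 was the highest control for the H2b sum, and without Hist1h2bc the remaining 17 H2b genes summed to 7.79, 31.0 and 1.42 FPKM in controls against 4.35, 3.32 and 4.15. Hist1h2bj was at 3.24, 3.88 and 0 against 1.30, 0.489 and 0.488 (log2 change -0.68, SE 0.61, adjusted p = 0.381 by limma), and without control 3 it was called lower (-1.40).

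**Figure D3:**
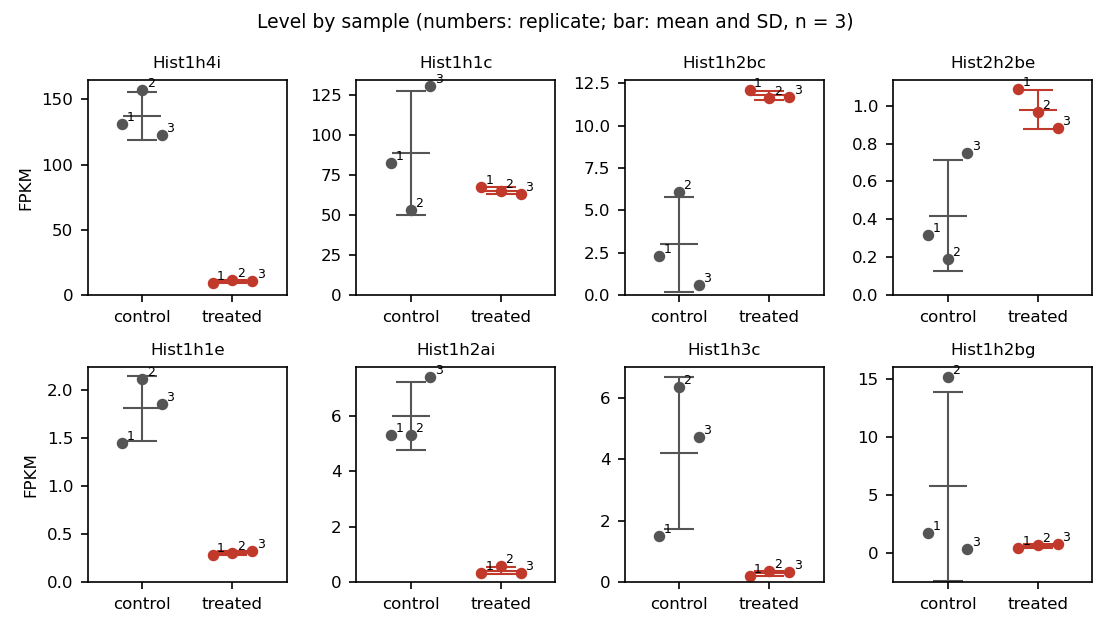
FPKM of 8 histone genes in each sample (points, numbered by replicate), with the group mean and SD (n = 3) as bars. Hist1h4i, Hist1h1e, Hist1h2ai and Hist1h3c lie lower in every treated sample, Hist1h2bc and Hist2h2be higher, and the controls of Hist1h1c and Hist1h2bg span the treated values.

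All 10 H3 genes above 0 had lower means in treated cells, and 3 of the 5 tested fell, against 28.3% called lower among all genes tested. These 3, Hist1h3c, Hist1h3e and Hist1h3g, passed the filter through the controls alone, so that the count is no support. Hist1h3c was at 1.52, 6.36 and 4.74 FPKM in the controls and 0.212, 0.359 and 0.323 in treated samples (log2 change -1.87, SE 0.38, adjusted p = 0.00756 by limma). Hist1h3g was at 4.40, 2.44 and 1.77 against 0.546, 0.0854 and 0 (log2 change -1.65, SE 0.29, adjusted p = 0.004 by limma). Neither gene had overlapping groups, and both calls held in all 14 alternatives tested. Hist1h3e fell as well, 5.01-fold (adjusted p = 0.00616 by limma). Hist1h3i was at 4.12, 8.06 and 0 FPKM in the controls and 0.325, 1.10 and 0.110 in treated samples, and with control 3 at 0 the groups overlapped (adjusted p = 0.207 by limma). Without control 3 it was called lower, with a log2 fold change of -2.22.

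On the log2(FPKM + 1) scale Hist1h4i had the most negative change of the tested histone cluster genes and ranked 11 among the 11118 tested genes from the most negative log2 fold change. This H4 gene (chromosome 13, 22040636 to 22041362, minus strand, 1 exon, GRCm38) was at 131, 157 and 123 FPKM in the controls and 9.52, 11.4 and 10.5 in treated samples. Every treated value lay far below every control. The mean fell from 137 ± 18.2 to 10.5 ± 0.936 FPKM (SD, n = 3), 13.1-fold lower (log2 change -3.58, SE 0.14, adjusted p = 0.000136 by limma). Among the tested histone genes this ratio of means was slightly exceeded by those of Hist1h2ai, Hist1h3c and Hist1h3g, at far lower levels. Some genes below the filter exceeded it too, up to 19.1-fold for Hist1h2ap, from few reads. Behind the values of Hist1h4i are 2985, 3629 and 2088 reads in controls and 311, 366 and 338 in treated samples. Only 2.08% of its 150-base windows occur in other genes, all of them H4 genes. Across all 15 alternatives it stayed called, with log2 fold changes from -3.69 to -2.52.

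The other H4 genes were far less abundant in controls, at most 5.94 FPKM in any sample, and did not all move alike. Hist1h4h, which like Hist1h4i has a stem-loop and a signal after it, was at 2.11, 1.21 and 2.72 FPKM in the controls and 2.75, 4.09 and 3.17 in treated samples. Its treated samples lay just above the highest control, and the difference was not called (log2 change 0.55, SE 0.22, adjusted p = 0.0771 by limma). It was called higher with library size scaling (1.08, against the shifted median of 0.59), with the GC, length and level trend removed and without control 3. Hist1h4k fell from 5.94, 4.85 and 1.23 FPKM to 0.428, 0.798 and 0.580 (adjusted p = 0.0246 by limma), a call lost in 8 of 14 alternatives. Hist1h4d fell 8.36-fold (adjusted p = 0.000941 by limma). Without Hist1h4i the H4 genes summed to 14.7, 22.3 and 7.78 FPKM in the controls and 5.91, 7.71 and 6.95 in treated samples, with control 3 just above treated 2.

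**Figure D4:**
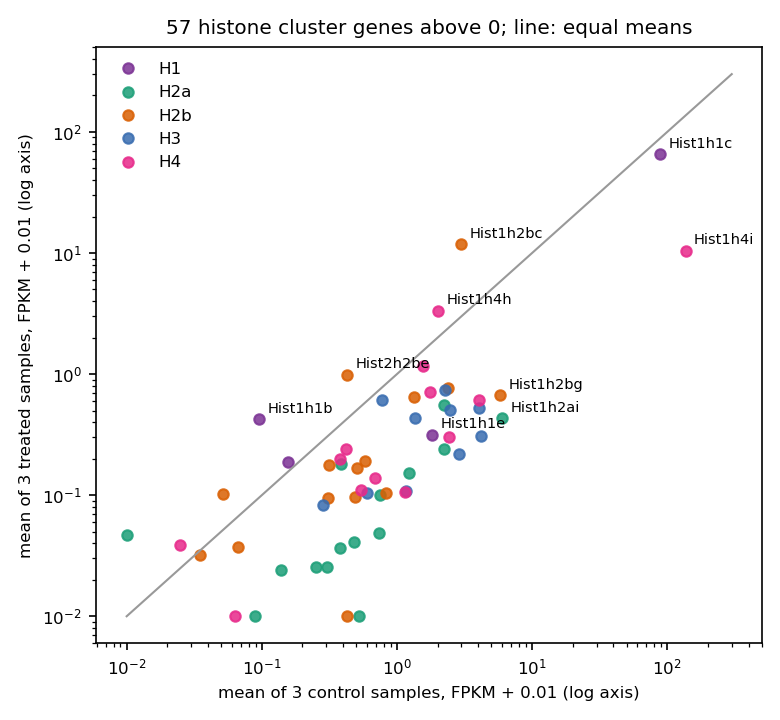
Mean FPKM + 0.01 of the 57 histone genes above 0, treated (y) against control (x), both on log axes, coloured by type, with the line of equal means. Of these genes 49 lie below the line and 8 above it, and Hist1h4i lies below it at the high end while Hist1h1c is close to it.

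Genes with a polyadenylation signal after the stop, chiefly Hist1h1c and Hist1h4i, carried most of the measured histone RNA. The 22 such genes summed to 228, 231 and 262 FPKM in the controls and 96.0, 96.7 and 92.0 in treated samples, which is 73.3% to 92.1% of the histone sum. Of these 22, 19 were above 0 in any sample, and 7 of the 19 had all treated samples below all controls and 3 above. Of the 45 genes without a signal, 38 were above 0, and 14 of the 38 had all treated samples below and 1 above. Of all 27756 genes above 0 in any sample, 15.9% lay below and 24.4% above. The sum of the 45 was 48.5, 84.1 and 30.5 FPKM against 10.3, 8.30 and 9.86. Without Hist1h1c and Hist1h4i, the other 20 genes with a signal summed to 14.3, 19.7 and 9.66 FPKM in the controls and 19.1, 20.4 and 18.4 in treated samples, with overlapping groups. These 20 summed to less than the 45 genes without a signal in each control, and to more in each treated sample. The contrast rests largely on Hist1h2bc, a member of the 20, which made up the larger part of each treated sum. Hist1h2bc was at 2.29, 6.08 and 0.591 FPKM in the controls and 12.1, 11.6 and 11.7 in treated samples. Genes with no base annotated after the stop could hold no signal and count among the 45. The difference between both sets was not tested.

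Copies within a type are alike enough to bear on single-gene values. Between coding sequences of equal length the median identity was 96.4% among H2a, 95.7% among H2b, 97.6% among H3 and 93.9% among H4 genes. In 21 genes, 50% or more of the 150-base windows also occur elsewhere, in 32 genes fewer, and in 14 none. Among the 14 with no shared window, 10 were above 0 in any sample. All treated samples were below all controls for 4 of the 10 and above for 2. The shares of all 27756 genes above 0 in any sample were 15.9% and 24.4%. The authors' treatment of reads with several placements is not given in the sources used here. Of the 10 genes at 0 in all samples, Hist2h2aa1, Hist2h2aa2, Hist2h3b and Hist2h3c1 share 73.8% to 100% of their windows, and Hist2h2bb shares 33.6%, Hist1h2ba 11.9% and Hist1h1a, Hist1h1t, Hist1h2aa and Hist3h2ba none. A count of 0 allows up to 3 independent reads, which in control 3 corresponds to between 0.0701 and 0.336 FPKM for these genes, counting error only. The reads are paired, and if both mates of a pair were counted these limits are too low.

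H2a and H2b genes often sit head to head and share the DNA between their starts. With starts within 500 bases, 12 such pairs were found. In 8 pairs both means were lower in treated cells, in 3 the H2a mean was lower and the H2b mean higher, and in 1 (Hist1h2aa and Hist1h2ba) both were at 0. The 3 opposed pairs were Hist1h2ac with Hist1h2bc, Hist2h2ac with Hist2h2be, and Hist1h2ao with Hist1h2bq. Hist1h2ac was at 1.09, 0.330 and 0.808 FPKM in the controls and 0.0717, 0.137 and 0.0638 in treated samples, lower in all 3, while its partner 251 bases away was higher in all 3. Hist2h2ac was at 0.123, 0.182 and 0.0821 against 0.0428, 0 and 0, from at most 3 reads in any library, and Hist2h2be starts 239 bases from it. For Hist1h2ao and Hist1h2bq no sample exceeded 0.394 FPKM.

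The promoters of 3 of these genes are printed because they belong to the most abundant histone genes of the treated and of the control samples by mean level, Hist1h1c and Hist1h4i, and to an opposed pair. A RefSeq (GRCm38.p6) promoter was matched by symbol and position for 62 of the 67 genes. Hist1h2bc, Hist2h2be, Hist1h3a, Hist1h3f and Hist2h4 were not matched, so their promoters were not searched. Motifs were searched in the 250 bases before the start on both strands: TATAAA (the TATA box), CCAAT (the CCAAT box), ATTTGCAT (the octamer) and AAACACA (the H1 box). None of the 4 contains another. The last 160 bases before the start follow, from chr13:23738647-23738806 (plus strand), chr13:22041363-22041522 (minus strand) and chr13:23683960-23684119 (minus strand), with motifs in capitals, also where the letters are those of the opposite strand.
Hist1h1c promoter: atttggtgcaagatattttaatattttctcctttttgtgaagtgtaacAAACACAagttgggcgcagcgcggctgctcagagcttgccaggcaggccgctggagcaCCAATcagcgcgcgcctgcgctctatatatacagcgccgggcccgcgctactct
Hist1h4i promoter: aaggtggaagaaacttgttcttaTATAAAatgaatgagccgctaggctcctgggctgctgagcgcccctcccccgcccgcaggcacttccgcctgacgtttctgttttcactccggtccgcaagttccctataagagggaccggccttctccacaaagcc
Hist1h2ac promoter: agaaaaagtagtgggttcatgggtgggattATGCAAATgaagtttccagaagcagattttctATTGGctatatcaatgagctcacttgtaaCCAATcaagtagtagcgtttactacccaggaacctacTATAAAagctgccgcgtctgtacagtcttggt

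TATAAA was found in 29 of the 62 histone promoters (46.8%), against 13.0% of all 27025 promoters. CCAAT was found in 51 (82.3%, against 34.5%): in every matched H1, H2a and H2b promoter, in 8 of 10 for H3 and in 3 of 12 for H4. ATTTGCAT was found in 7 of 18 H2a and 6 of 16 H2b promoters and in no other histone promoter, against 1.61% of all promoters. AAACACA was found in 5 of 6 H1 promoters, 2 H2a and 2 H2b promoters, against 6.22% of all. These matches say only that the letters are there.

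The genes that make, process and remove histone mRNA were measured in the same libraries. Of the 29 matched genes for histone mRNA transcription, 3′ end processing and decay, 26 were tested, and 15 were called higher, 8 lower and 3 neither way, where 27.9% of all genes tested were higher and 28.3% lower. By library size 18 were higher and 2 lower and, at the deposited scaling, without treated 1, 2 or 3 the lower count was 3. The median was 0.59 against -0.02 over all genes tested. Slbp, which binds the stem-loop, was at 8.25, 6.74 and 8.93 FPKM in the controls and 5.66, 5.43 and 5.81 in treated samples. Every treated value was below every control, by 1.41-fold on average (log2 change -0.43, SE 0.13, adjusted p = 0.0274 by limma). The call was lost when control 1 or any treated sample was left out. By library size it was 0.22 (adjusted p = 0.108 by limma).

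Lsm10 and Lsm11, the proteins particular to the U7 particle that cuts histone pre-mRNA, moved apart. Lsm10 was at 5.93, 8.36 and 0.996 FPKM in the controls and 20.9, 20.4 and 20.3 in treated samples (log2 change 2.09, SE 0.55, adjusted p = 0.0195 by limma), all treated samples being higher. Lsm11 was at 7.38, 4.99 and 8.60 against 3.85, 4.23 and 3.84 (log2 change -0.66, SE 0.19, adjusted p = 0.0249 by limma), all being lower. Both calls were lost without a filter and when any treated sample was left out, and that of Lsm11 also with library size scaling (-0.03) and without control 1. Snrpg, a ring protein of spliceosomal and U7 particles, fell from 85.3 ± 1.59 to 33.7 ± 2.29 FPKM (SD, n = 3).

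Npat, a coactivator of histone transcription, was at 2.79, 3.93 and 1.53 FPKM in the controls and 6.36, 5.48 and 5.98 in treated samples (log2 change 0.94, SE 0.24, adjusted p = 0.0182 by limma). Casp8ap2, which encodes the processing factor FLASH, rose from 1.24, 1.06 and 1.25 to 4.10, 4.01 and 4.37 FPKM (log2 change 1.24, SE 0.09, adjusted p = 0.000311 by limma). Eri1, an exonuclease that trims the histone stem-loop, rose from 1.74, 1.67 and 1.66 to 5.13, 5.53 and 5.58 FPKM (adjusted p = 0.000295 by limma). None of the 3 genes had overlapping groups. Npat lost its call without control 1, treated 1 or treated 3 and with the GC, length and level trend removed.

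**Figure D5:**
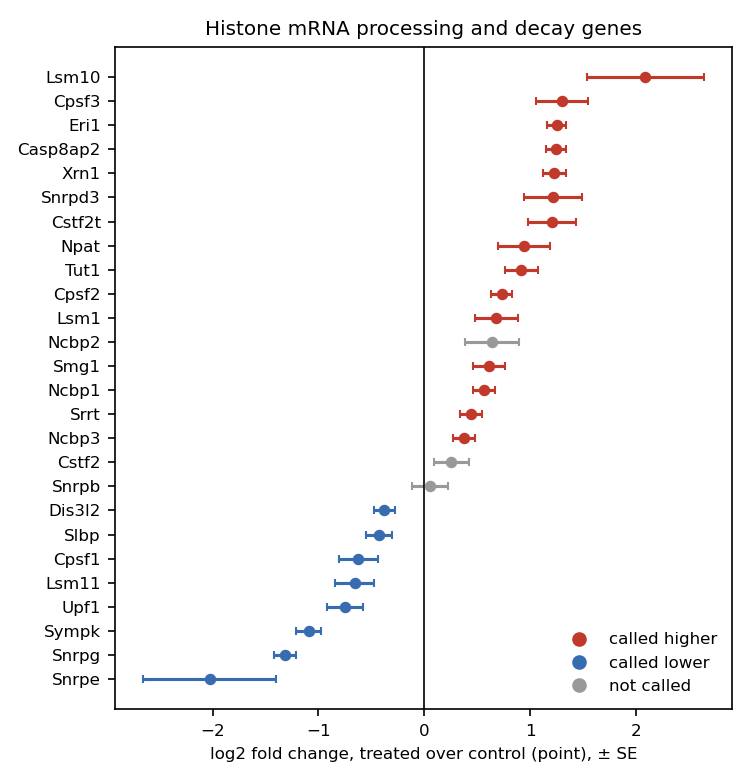
Log2 fold change (treated over control, log2(FPKM + 1) scale) of the 26 tested genes for histone mRNA transcription, processing and decay, with SE as bars and colour by call. Of these, 15 lie above 0 as called genes, with Lsm10 the highest, 8 lie below 0 as called genes, including Slbp and Lsm11, and 3 are not called.

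Replication-independent histones are made mostly from polyadenylated mRNA, and many of them, though not all, throughout the cell cycle. Of 11 such genes 10 were tested by limma, of which 5 fell and 0 rose, also 0 at an unadjusted p under 0.05, against 28.3% lower and 27.9% higher of all genes tested. The split depended on the scaling: 3 were higher and 2 lower by library size, 1 and 3 after quantile normalization, and 2 and 2 with the GC, length and level trend removed. The median log2 change was -0.60. Those that fell were H2afv, H2afj, H3f3b, H1fx and Cenpa. The calls of H2afj and H1fx were lost without a filter (adjusted p = 0.062 and 0.0891 by limma). The groups of H1fx overlapped, with control 2 at 5.57 FPKM and treated 2 at 5.58. Its exons also overlap those of Gm5577 on the opposite strand, which had a mean of 2.14 FPKM in controls and 0.318 in treated samples. Cenpa, the centromeric H3 variant, fell from 22.4, 22 and 21.3 to 7.66, 7.77 and 8.00 FPKM (log2 change -1.38, SE 0.09, adjusted p = 0.000253 by limma) and stayed called in all 15 alternatives. H2afv, an H2A.Z gene, was at 147, 108 and 183 FPKM in the controls and 33.2, 31.8 and 29.1 in treated samples. H2afz, H3f3a, H1f0, H2afx and H2afy were not called, and H3f3a ranged from 15.7 to 78.1 FPKM among the controls alone.

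The counts in the other lists are to be read against the same shares of all genes. Of 25 tested histone chaperone genes, 4 rose and 8 fell, with a median of -0.02, and by library size 16 were higher and 2 lower. Chaf1b, a subunit of the assembly factor CAF-1, rose 2.42-fold (adjusted p = 0.000764 by limma), and Npm1, which encodes nucleophosmin, fell 4.01-fold, from 1596 ± 311 to 398 ± 32.0 FPKM (SD, n = 3). Of 30 S phase genes, 4 rose and 7 fell, 19 were not called, and the median was 0.08. By library size 18 were higher and 0 lower, and without control 3, 9 were higher. Ccne2, which encodes a cyclin E, rose 2.25-fold (adjusted p = 0.00251 by limma) and Gins2, a subunit of the replicative helicase, fell 1.91-fold (adjusted p = 0.00489 by limma). Their exons overlap those of Ints8 and Gse1 on the opposite strand, and without a known strand setting these reads cannot be told apart. Of 18 tested genes for general polyadenylation and nuclear decay, 3 rose and 5 fell, with a median of 0.07, and by library size 10 were higher and 2 lower. Cpsf6 rose from 2.27 ± 0.177 to 7.76 ± 0.294 FPKM and Fip1l1 fell from 48.2 ± 28.0 to 11.4 ± 0.446 FPKM (SD, n = 3). Of 8 matched genes for RNA without a poly(A) tail, 7 were at 0 in every sample, and Rnu73b was at 18.9, 10.2 and 0 FPKM in the controls and 2.51, 0.319 and 1.91 in treated samples, with overlapping groups.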

How the data were processed

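The authors deposited FPKM per Ensembl gene and sample, per the file headers. RNA was selected on poly-T beads and read as paired 150 bp reads, per the labels' protocols. The sources used here do not give the aligner, counter, build, annotation or strandedness. Symbols, coordinates and transcripts came from GENCODE M21 (GRCm38), and 52125 of 56748 identifiers had a symbol. Whole reads were worked back from the FPKM steps with GENCODE exon lengths. Sums, windows and motif matches were computed in Python 3.11.15 (pandas 2.3.3).

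The test was limma 3.58.1 (R 4.3.3, trended prior variance) on log2(FPKM + 1), with group as the only term, for genes reaching 1 FPKM in 3 or more samples. Benjamini-Hochberg adjustment covered 11118 genes. The log2(FPKM + 1) scale understates changes of low genes. The fit was tested on simulated data. Named genes are each type's 3 most abundant, its largest called changes, every H1 gene, Slbp, Npat, Casp8ap2, Lsm10, Lsm11 and each list's leading called genes. Others, such as Hist2h2be, Hist1h2ac, Hist1h3e, Hist1h4d and the opposed pairs, were picked after their values were seen. Members and lists were chosen with earlier results of these data known. Of the listed names, those without a match in the annotation were left out. Alternatives were another pseudocount, other filters, scalings, sample weights, trend removal, a replicate block and leaving out each sample.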

Additional observations from a re-analysis of the deposited data

How the results depend on the processing

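By library size only, 6034 genes were called higher and 1150 lower, 2 histone cluster genes higher, and in the other histone-related lists 65 higher and 8 lower. The log2 ratios of summed FPKM were then -0.75 for all histone genes, 0.32 for H1, -2.38 for H2a, 0.62 for H2b, -1.79 for H3 and -2.40 for H4. Hist1h1c was at 0.39 under this scaling, 0.52 after quantile normalization and 0.58 with the GC, length and level trend removed, where 2 histone genes were called higher, and Slbp was at 0.22 by library size. With a minimum of 5 FPKM, 1385 genes were called higher, 2 histone genes lower out of 4 tested, and 17 list genes higher, since fewer genes were tested. Apart from what the alternatives' own construction shows, the cause was not tested.

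Leaving out each sample in turn gave 2279 to 3634 genes higher and 2140 to 3778 lower, 0 to 2 histone genes higher and 8 to 13 lower, and 17 to 39 list genes higher and 18 to 38 lower. Sums ranged from -1.54 to -1.45 for all, -0.71 to -0.08 for H1, -3.24 to -3.05 for H2a, -0.58 to 1.38 for H2b, -2.79 to -2.14 for H3 and -3.23 to -3.00 for H4. The H2b value of 1.38 is the one without control 2. The 0 histone genes higher were found without control 1 or any treated sample, and 13 lower without control 3.

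The numbers 1 to 3 do not pair the samples: deviations of same-numbered samples correlated at -0.05, -0.11 and -0.14 across genes, and no sample correlated best with its own number. With the replicate block 2618 genes were higher and 2669 lower, and 1 histone gene was higher and 10 lower. Slbp (adjusted p = 0.0694) and Lsm11 (0.0507) were not called with the block, the processing and decay list had 13 higher and 5 lower, and the S phase list 2 and 4.

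Of the 67 histone genes, 50 did not pass the filter, and how far depth limits them was not tested.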
